A study of Mus musculus with 8 samples.

Results

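Hypoxia response and glycolysis genes were compared between lungs of Fra-2 transgenic mice and wild-type mice. The set held 35 genes, chosen by symbol: 17 glycolytic enzymes and 18 other genes of the oxygen-sensing pathway. All 35 were read by at least 1 named spot, out of 20863 genes measured. Where a gene had several spots, the one brightest on average over the 8 arrays stood for it. Whole-lung RNA of 8 mice was hybridised to single-colour Agilent arrays, 1 array per mouse. In the wild-type group were 4 mice, and in the transgenic group 4 mice over-expressing Fra-2, the AP-1 transcription factor encoded by Fosl2. All 8 mice had the C57BL/6 background and were 8 weeks old. Which promoter drives the transgene is not stated in the labels, nor is the number of founder lines.

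Cells sense oxygen through hypoxia-inducible factors (HIFs), which pair an oxygen-regulated alpha subunit (Hif1a, Epas1 or Hif3a) with the constant partner Arnt. In oxygen, the prolyl hydroxylases Egln1, Egln2 and Egln3 mark the alpha subunit, and Vhl, part of a ubiquitin ligase, has it destroyed. In hypoxia the alpha subunit escapes and HIF raises transcription of glycolytic enzymes, glucose and lactate transporters, and genes of acid handling, mitophagy and growth arrest. Because the control acts mainly on the protein, the messenger RNA of a HIF subunit does not measure HIF activity, whereas messenger RNA of the target genes is a usual readout. Epas1 is known for high expression in lung endothelium and is a gene of interest in pulmonary vascular disease.

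The promoters of 7 members are shown because they carry the letters HIF is known to bind and belong to genes whose mean differences varied. The transgenic mean stood above the wild-type mean for Car9 and Ankrd37 and below it for Bnip3, Ddit4 and Slc16a3. For Pgk1 and Slc2a1 the means were close. None of the 7 passed the test over all genes given below, and the groups overlapped in all but Bnip3. Each sequence is the 250 bases before the RefSeq start site (build GRCm38.p6), 5′ to 3′ on the gene's strand. Capitals mark the hypoxia response core, searched as ACGTG or GCGTG on both strands, so that it may also read CACGT or CACGC.
Car9, chr4:43506776-43507025, strand +: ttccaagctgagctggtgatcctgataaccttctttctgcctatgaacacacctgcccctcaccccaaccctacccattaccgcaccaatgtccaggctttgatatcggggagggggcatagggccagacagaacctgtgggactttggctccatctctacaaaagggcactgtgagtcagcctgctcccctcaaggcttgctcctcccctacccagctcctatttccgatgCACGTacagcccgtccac
Ankrd37, chr8:45999851-46000100, strand -: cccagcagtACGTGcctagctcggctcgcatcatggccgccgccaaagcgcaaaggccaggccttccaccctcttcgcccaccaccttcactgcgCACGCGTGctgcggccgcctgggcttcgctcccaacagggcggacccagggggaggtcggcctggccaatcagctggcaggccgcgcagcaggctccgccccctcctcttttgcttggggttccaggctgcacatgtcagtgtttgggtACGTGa
Bnip3, chr7:138909507-138909756, strand -: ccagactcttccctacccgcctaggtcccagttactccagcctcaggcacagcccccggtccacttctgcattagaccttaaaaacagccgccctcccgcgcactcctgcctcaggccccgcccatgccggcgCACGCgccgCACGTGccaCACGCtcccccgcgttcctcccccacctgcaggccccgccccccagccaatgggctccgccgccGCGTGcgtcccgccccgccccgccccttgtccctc
Ddit4, chr10:59951771-59952020, strand -: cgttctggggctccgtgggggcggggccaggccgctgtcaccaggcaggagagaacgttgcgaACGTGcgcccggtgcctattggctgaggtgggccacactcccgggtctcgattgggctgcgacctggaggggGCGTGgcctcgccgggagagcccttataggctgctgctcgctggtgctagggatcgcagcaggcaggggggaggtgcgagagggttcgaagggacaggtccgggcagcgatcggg
Slc16a3, chr11:120948817-120949066, strand +: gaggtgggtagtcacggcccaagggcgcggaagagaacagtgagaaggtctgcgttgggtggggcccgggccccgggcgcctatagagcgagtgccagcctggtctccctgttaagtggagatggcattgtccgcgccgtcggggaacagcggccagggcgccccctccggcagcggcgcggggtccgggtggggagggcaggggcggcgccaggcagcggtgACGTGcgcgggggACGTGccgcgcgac
Pgk1, chrX:106186850-106187099, strand +: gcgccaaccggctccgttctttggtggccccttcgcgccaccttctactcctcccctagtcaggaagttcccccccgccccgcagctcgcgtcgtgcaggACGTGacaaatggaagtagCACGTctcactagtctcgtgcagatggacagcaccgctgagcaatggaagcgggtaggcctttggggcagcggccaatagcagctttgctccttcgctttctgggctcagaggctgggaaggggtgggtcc
Slc2a1, chr4:119108495-119108744, strand +: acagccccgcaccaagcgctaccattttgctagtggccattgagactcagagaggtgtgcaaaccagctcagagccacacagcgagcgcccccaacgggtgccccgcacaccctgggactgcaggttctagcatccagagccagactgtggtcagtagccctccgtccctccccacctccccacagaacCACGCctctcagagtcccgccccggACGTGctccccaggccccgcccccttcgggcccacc

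The core was found at position -18 from the start site in Car9, where it lies on the opposite strand. In Ankrd37 it stood at -241, -155, -152 and -6, and in Ddit4 at -187 and -115. Slc16a3 carried it at -27 and -14, Slc2a1 at -36 and -61, and Pgk1 at -150 and -131. In Bnip3 it stood at -117, -108, -107, -99 and -35, where the run CACGTG counts as an ACGTG match on each strand. RefSeq promoter windows of 300 bases, 250 before to 50 after a start site, were matched by symbol for 32 of the 35 genes. Epas1, Slc2a3 and Ndrg1 had none. The 32 genes had 46 windows. Some overlap within a gene, as in Aldoa, Eno1 and Pfkm, so the windows are not independent. ACGTG stood in 23 of 46 member promoters (50%) and in 19.6% of all 32851 promoters. GCGTG stood in 26 of 46 (56.5%) against 32.4%, and either core in 37 of 46 (80.4%) against 43.8%. The member promoters were richer in G and C (median 62.5%) than all promoters (52.7%), and both cores contain CG. Only Vhl, Gpi1, Tpi1 and Eno2 lacked either core in these windows, among the 32 genes. A match is a description of these letters and not a measured binding site.

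Expression is given as log2 normalised intensity, on which a difference of 1 is a doubling. A floor for dim signals, 4.74, was the median over all spots, and all 35 genes lay above it in all 8 mice. The defining lung markers were present: 6 of 6 epithelial and 5 of 5 endothelial genes were above the floor in every mouse. Wild-type mouse 4 and transgenic mouse 4 stood somewhat apart, with mean correlations to their own group of 0.976 and 0.979 against 0.9825 to 0.9847 for the other 6. The brighter Fosl2 spot differed by -0.75 (SE 0.31, limma adjusted p = 0.519 over all genes) and the dimmer by 2.45 (SE 0.47, limma adjusted p = 0.153 over all named spots), so the spots pointed opposite ways. The dimmer spot separated the groups in the labelled direction, with 3.44 to 5.58 in wild-type and 6.35 to 7.85 in transgenic mice. Wild-type mice 1 to 3 were under the floor on that spot, so the size of its difference is uncertain. With 4 arrays a group, precision is set by their number. In whole lung, fewer cells of a type and less RNA per cell cannot be told apart.

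None of the 35 genes passed the test over all genes. The glycolytic enzymes lay close to the wild-type level, while the other targets spread to both sides of it: Car9 was 1.61-fold higher in transgenic lung and Slc2a3 1.77-fold lower. By limma with Benjamini-Hochberg adjustment, 0 of 35 members and 45 of 20863 genes (0.216%, of which 0.125% higher and 0.0911% lower) had an adjusted p under 0.05. At an unadjusted p under 0.05 there were 3 members, Car9 (higher), Slc2a3 and Bnip3 (both lower), or 8.57% of the set against a background of 9.15% (5.33% higher and 3.82% lower). The groups did not overlap in 3 members, Tpi1 (higher), Egln2 and Bnip3 (both lower), again 8.57%, where the background was 6.53%. Both shares are near the background. The median difference was -0.01 over the 35 members and 0.01 over all genes. The genes that follow were named by rule, save Ankrd37, Ddit4, Pfkfb3, Slc16a3, Pdk1, Eno2, Pfkm, Hk3, Bpgm, Pgam2, Slc2a4 and Marco, which were singled out after their values were seen. Gapdh is given as a common reference gene, and the remaining members are named to account for the whole set.

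**Figure D1:**
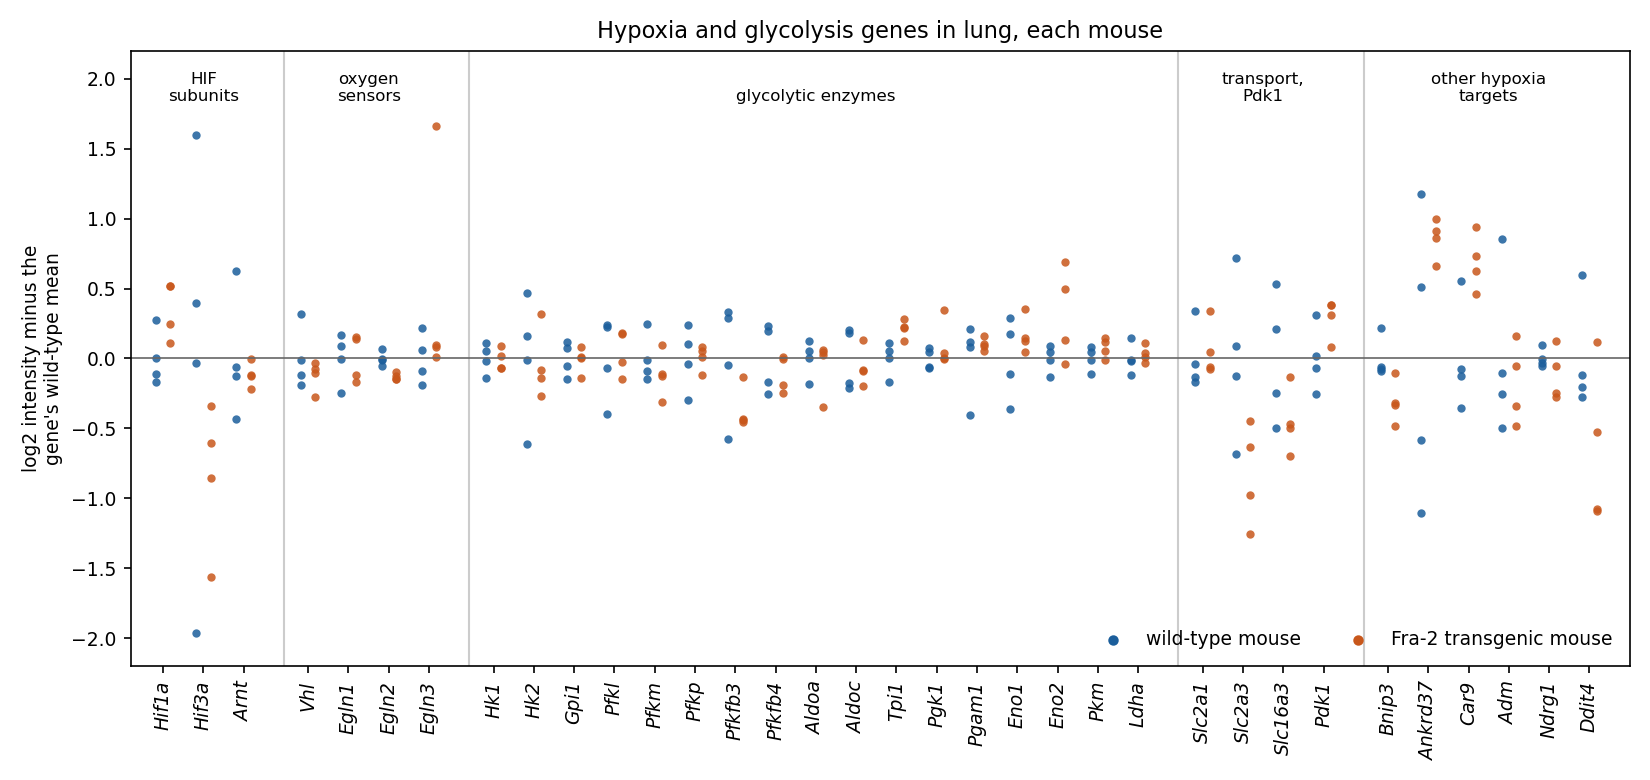
Log2 intensity of 34 genes in each mouse, minus that gene's wild-type mean, with wild-type mice in blue and transgenic mice in orange (y axis, log2 units; x axis, genes by role). Epas1 is left out because its brightest spot was at the top of the scanner's scale. Most of the 17 glycolytic enzymes lie close to 0 in both groups, with Hk2 and Pfkfb3 more scattered. Hif3a, Ankrd37, Slc2a3 and Ddit4 scatter widely.

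Among the HIF subunits, Hif1a stood a little higher in transgenic lung and the others gave no common direction. Hif1a, the alpha subunit found in most cells, measured 9.15, 8.98, 9.43 and 9.04 in wild-type mice 1 to 4, against 9.39, 9.26, 9.67 and 9.67 in transgenic mice 1 to 4. The groups overlapped, since wild-type mouse 3 lay above transgenic mice 1 and 2. The difference was 0.35 (SE 0.15, 95% interval -0.01 to 0.70, limma adjusted p = 0.554). Leaving out wild-type mouse 3 gave 0.44, and leaving out both mice numbered 4 gave 0.26. A dimmer Hif1a spot, under the floor in every mouse, gave no usable level.

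Epas1, the alpha subunit of endothelium, was read by 3 spots. The brightest lay at the top of the scanner's scale, 16 after rounding to 2 decimals, in all 8 mice, so it was treated as saturated and gives no difference. The next spot measured 11.87, 11.94, 11.95 and 11.14 in wild type against 11.88, 12.14, 12.20 and 11.33 in transgenic mice, a difference of 0.16 (SE 0.26, exact permutation p = 0.514, two-sided). The remaining spot had 11.49, 11.17, 10.71 and 11.01 against 10.87, 10.92, 10.60 and 10.90, a difference of -0.27 (SE 0.18, exact permutation p = 0.200, two-sided). Both unsaturated spots overlapped between the groups and they pointed opposite ways, so Epas1 has no settled direction here. The mice numbered 4 were the lowest of their groups on the brighter of these spots. Beside it, 4 of 5 endothelial markers had positive differences (median 0.22; 0 passed and 0 at an unadjusted p under 0.05, limma), and their part in it was not tested.

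Hif3a, whose shorter forms oppose the other alpha subunits, varied most within the groups. Its levels were 7.55, 5.63, 9.18 and 7.98 in wild-type mice and 7.25, 6.73, 6.98 and 6.03 in transgenic mice. The wild-type mice alone spanned the whole range of the transgenic mice. The within-group SD exceeded that of 99.6% of genes within 0.5 log2 units of its level. The difference of -0.84 (SE 0.68, limma adjusted p = 0.748) was -0.31 without wild-type mouse 3 and -1.49 without wild-type mouse 2. Arnt, the shared partner, stood at 10.15, 9.84, 10.21 and 10.90 in wild-type mice and at 10.15, 10.27, 10.16 and 10.06 in transgenic mice. Its difference of -0.12 (SE 0.22, limma adjusted p = 0.901) became 0.09 without wild-type mouse 4, the highest mouse.

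The oxygen sensors differed little, apart from 1 mouse with high Egln3. Vhl measured 9.74, 9.56, 9.64 and 10.07 in wild type against 9.72, 9.65, 9.48 and 9.68 in transgenic mice, a difference of -0.12 (SE 0.14, limma adjusted p = 0.832). Egln1, the main hydroxylase of HIF in most tissues, stood at 6.23, 6.06, 6.15 and 5.81 against 5.94, 6.20, 6.21 and 5.90, with equal means of 6.06. Its 95% interval ran from -0.33 to 0.33. Neither gene separated the groups.

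Egln2 had the tightest values of the set with saturated Epas1 left out: 12.89, 12.90, 12.97 and 12.85 in wild-type mice and 12.81, 12.76, 12.75 and 12.78 in transgenic mice. All 4 transgenic mice lay below all 4 wild-type mice (exact permutation p = 0.0286, two-sided, the smallest that 4 against 4 allows; background of genes lower without overlap, 2.54%). The step was only 0.13 in size, with a fitted difference of -0.13 (SE 0.10, limma adjusted p = 0.735). A dimmer Egln2 spot overlapped and gave 0.16 (SE 0.23). Egln3, itself a target that hypoxia raises, measured 4.999, 4.85, 5.16 and 4.75 in wild type against 4.95, 5.04, 5.02 and 6.60 in transgenic mice. Transgenic mouse 4 alone was high. The difference of 0.46 (SE 0.36, limma adjusted p = 0.740) was 0.06 without that mouse and 0.00 without both mice numbered 4. On a dimmer spot, on average under the floor, transgenic mouse 4 was again the highest, at 5.38.

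The 17 glycolytic enzymes, which turn glucose into pyruvate and lactate, stayed near the wild-type level. Their median difference was 0.01, with 9 positive and 8 negative, from -0.37 (Pfkfb3) to 0.32 (Eno2). Averaged over the 17 and set against the wild-type mean of each gene, the wild-type mice ranged from -0.10 to 0.06 and the transgenic mice from -0.01 to 0.03. The lowest of the 8 was wild-type mouse 4, which had the lowest value of its group in 10 of the 17. The 95% interval lay within -1 and 1, that is within a doubling or halving, for all 17. The same was true of 71.5% of all genes and of 85.8% of genes above the floor. The interval lay within -0.5 and 0.5 for 13 of 17, all but Hk2, Pfkfb3, Eno1 and Eno2, against 36.7% of genes above the floor. Those genes are not of like level. The mean level in wild-type mice was 11.54 to 11.71 for the enzymes and 9.10 to 9.13 for genes above the floor. Aldoa (mean 15.45) and Hk1 (15.26) lay near the top of the scale, 16. These intervals are per gene and not adjusted for the number of genes.

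**Figure D2:**
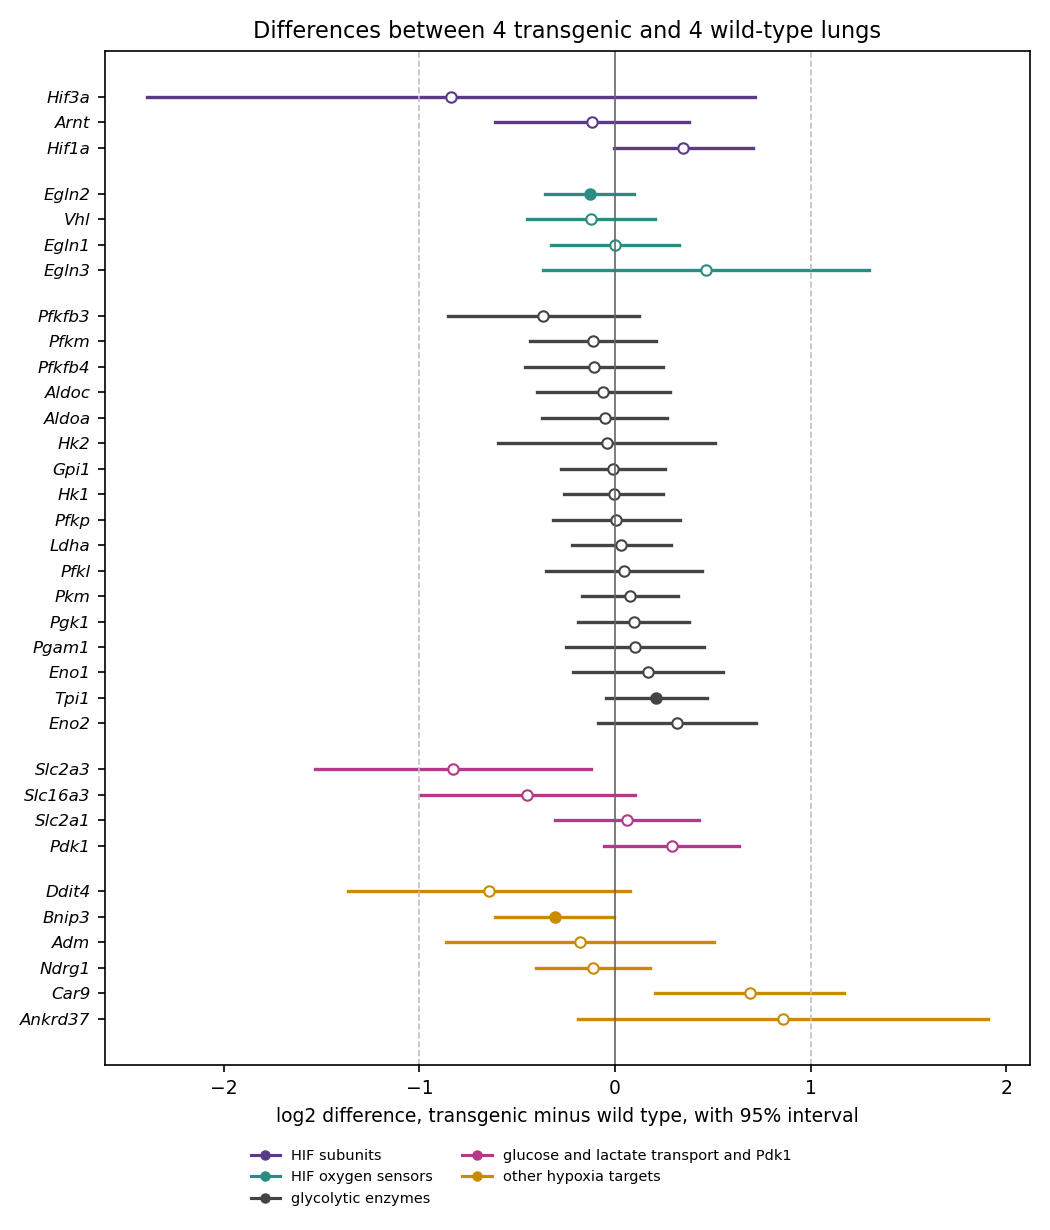
Log2 difference, transgenic minus wild type, with its 95% limma interval (x axis) for 34 genes ordered within roles (y axis; Epas1 left out as saturated). Filled points mark the genes whose groups did not overlap, Egln2, Tpi1 and Bnip3, and dashed lines mark -1 and 1. Most enzymes, in black, have short intervals around 0, and only Car9, Slc2a3 and Bnip3 have intervals that leave out 0.

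At the first step, Hk1, the constitutive hexokinase, stood at 15.24, 15.37, 15.31 and 15.12 in wild-type mice and at 15.28, 15.35, 15.19 and 15.19 in transgenic mice. The groups overlapped almost fully (difference -0.01, SE 0.11, limma adjusted p = 0.994). This spot is near the top of the scale, and the next Hk1 spot gave 0.12. Hk2, the hexokinase that hypoxia and insulin raise, had 9.06, 8.29, 9.37 and 8.89 against 8.76, 8.82, 8.63 and 9.22. Its wild-type mice were more scattered than its transgenic mice, and its difference was -0.04 (SE 0.24).

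Phosphofructokinase, the committing step, has liver (Pfkl), muscle (Pfkm) and platelet (Pfkp) forms. Pfkl had 8.92, 8.93, 8.62 and 8.29 in wild-type mice and 8.67, 8.88, 8.86 and 8.54 in transgenic mice (difference 0.05, SE 0.17, limma adjusted p = 0.957). Pfkp had 8.85, 9.12, 8.99 and 8.59 against 8.77, 8.90, 8.94 and 8.97 (0.01, SE 0.14, limma adjusted p = 0.994). In both forms wild-type mouse 4 was the lowest of the 8. Pfkm was read by 10 spots, whose differences all lay between -0.24 and -0.05. Its brightest spot gave -0.11 (SE 0.14, limma adjusted p = 0.847). The spots carry the same accession and were hybridised on the same arrays, so they are not independent.

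Pfkfb3, which makes the activator of phosphofructokinase and is induced by hypoxia, was the lowest enzyme. Its brighter spot had 11.30, 10.77, 11.63 and 11.67 in wild-type mice and 10.90, 10.91, 11.21 and 10.89 in transgenic mice, a difference of -0.37 (SE 0.21, limma adjusted p = 0.652). Wild-type mouse 2 lay below every transgenic mouse on that spot, and without it the difference was -0.56. The dimmer spot, of another transcript accession, had 5.85, 5.92, 5.85 and 5.78 against 5.53, 5.37, 5.44 and 5.24. There all 4 transgenic mice were lower, by -0.45 (SE 0.11, exact permutation p = 0.0286, two-sided, limma adjusted p = 0.280 over all named spots). Pfkfb4, a related enzyme, differed by -0.11 (SE 0.15).

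In the lower part of the pathway, Tpi1, the isomerase that balances the triose phosphates, had 12.25, 12.31, 12.20 and 12.03 in wild-type mice and 12.43, 12.33, 12.48 and 12.42 in transgenic mice. All 4 transgenic mice were higher, by a narrow margin (1.16-fold, difference 0.21, SE 0.11, exact permutation p = 0.0286, two-sided, limma adjusted p = 0.620; background of genes higher without overlap, 3.99%). Its dimmer spot overlapped between the groups and gave 0.15. Pkm, the pyruvate kinase, had 12.49, 12.45, 12.39 and 12.29 against 12.39, 12.52, 12.46 and 12.55 (0.08, SE 0.11, limma adjusted p = 0.865). Ldha, which makes lactate and is a classical HIF target, had 14.78, 14.93, 14.66 and 14.77 against 14.89, 14.80, 14.83 and 14.75. Its difference was 0.03 with a 95% interval from -0.22 to 0.28, though its dimmest spot gave -0.24. Eno2, the enolase of neurons and hypoxic cells, had the highest difference of the enzymes, 0.32 (SE 0.18, limma adjusted p = 0.640). That value became 0.20 without transgenic mouse 4 and 0.44 without transgenic mouse 3. The remaining enzymes, Gpi1, Aldoa, Aldoc, Pgk1, Pgam1 and Eno1, had differences from -0.06 (Aldoc) to 0.17 (Eno1).

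**Figure D3:**
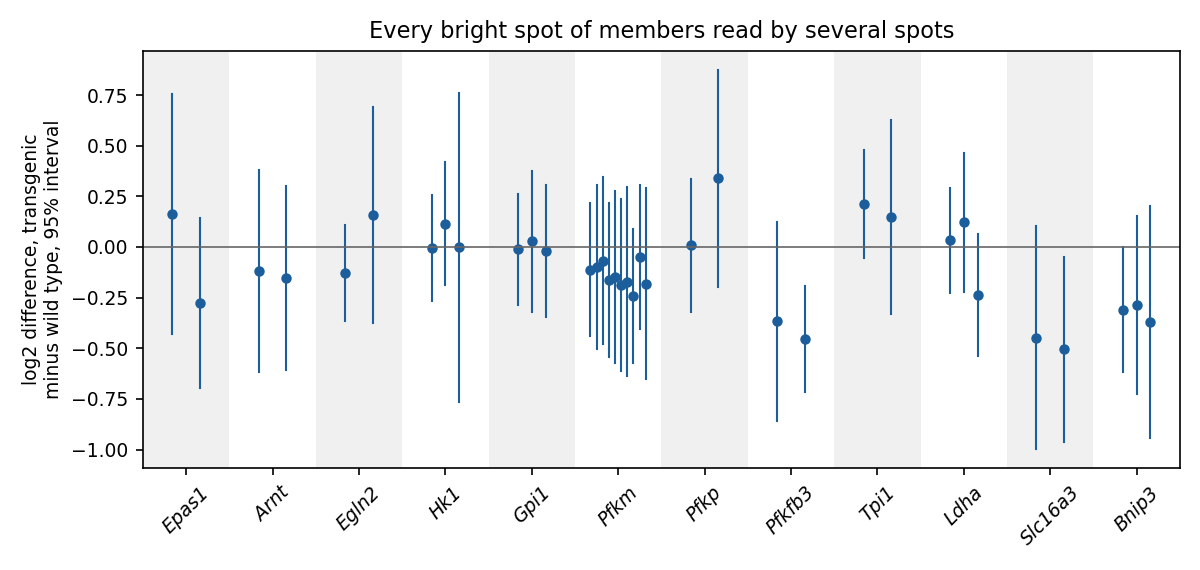
Log2 difference with 95% limma interval (y axis) for every spot of the 12 genes read by more than 1 spot above the floor and below saturation (x axis; within a gene, spots run from brightest to dimmest). Spots of Arnt, Pfkm, Pfkp, Pfkfb3, Tpi1, Slc16a3 and Bnip3 point the same way, while those of Epas1, Egln2, Hk1, Gpi1 and Ldha fall on both sides of 0.

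Of the transporters, Slc2a3 and Slc16a3 had lower means in transgenic lung and Slc2a1 a similar one, and none passed the test. Slc2a3, a high-affinity glucose transporter abundant in neurons and leukocytes, had 9.01, 8.79, 9.63 and 8.23 in wild-type mice and 7.94, 7.66, 8.28 and 8.47 in transgenic mice. The transgenic mice lay below 3 of the 4 wild-type mice, and wild-type mouse 4 was lower than transgenic mice 3 and 4. The difference was -0.83 (SE 0.31, 95% interval -1.53 to -0.12, limma adjusted p = 0.470; exact permutation p = 0.0857, two-sided). Leaving out both mice numbered 4 gave -1.18, and leaving out wild-type mouse 3 gave -0.59. Slc16a3, the lactate exporter of glycolytic cells, had 10.34, 10.59, 11.37 and 11.05 against 10.34, 10.14, 10.37 and 10.71. The groups overlapped and the difference was -0.45 (SE 0.24, limma adjusted p = 0.626). Its other spot gave -0.51 (SE 0.20), and without wild-type mouse 3 the brighter spot gave -0.27. Slc2a1, the general glucose transporter, had 10.54, 10.45, 10.41 and 10.93 against 10.92, 10.52, 10.51 and 10.63, a difference of 0.06 (SE 0.16, limma adjusted p = 0.935). Pdk1, a kinase that inhibits pyruvate dehydrogenase, had 7.67, 8.04, 7.48 and 7.75 against 8.12, 8.12, 8.05 and 7.82. Its difference was 0.29 (SE 0.15, limma adjusted p = 0.614).

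The other hypoxia targets gave no common direction, and none passed the test. Car9, a carbonic anhydrase of the cell surface and one of the most hypoxia-specific genes, had 6.06, 5.16, 5.43 and 5.38 in wild-type mice and 6.45, 6.13, 5.97 and 6.24 in transgenic mice. Only wild-type mouse 1 reached into the transgenic range. Means were 5.51 ± 0.39 and 6.20 ± 0.20 (SD, n = 4 each). The difference was 0.69 (SE 0.21, 95% interval 0.21 to 1.17, limma adjusted p = 0.359; exact permutation p = 0.0571, two-sided). Over the alternatives Car9 stayed between 0.44 (offset of 32) and 0.87 (without wild-type mouse 1), and its adjusted p between 0.211 and 0.572. Ankrd37, a small ankyrin repeat protein induced by HIF, had 6.71, 8.99, 7.23 and 8.32 against 8.68, 8.81, 8.73 and 8.47. The transgenic mice were tightly grouped (SD 0.14) and the wild-type mice scattered (SD 1.03) on both sides of them. The difference of 0.86 (SE 0.46, limma adjusted p = 0.623) was 0.49 without wild-type mouse 1 and 1.25 without wild-type mouse 2.

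Bnip3, a mitophagy receptor that HIF raises, had 12.29, 12.30, 12.58 and 12.27 in wild-type mice and 12.26, 12.02, 12.04 and 11.87 in transgenic mice. All 4 transgenic mice were lower, though transgenic mouse 1 only just (1.24-fold, difference -0.31, SE 0.13, limma p = 0.0471, adjusted p = 0.538; exact permutation p = 0.0286, two-sided). Its 2 other spots overlapped between the groups and gave -0.29 and -0.37. Ddit4, an inhibitor of mTOR that hypoxia, glucocorticoids and stress raise, had 13.53, 13.44, 14.25 and 13.37 against 13.12, 12.58, 12.56 and 13.77. Transgenic mouse 4 was above 3 wild-type mice and the other 3 below all of them. The difference of -0.64 (SE 0.31, limma adjusted p = 0.594) was -0.90 without transgenic mouse 4 and -0.44 without wild-type mouse 3. Adm, the vasodilator adrenomedullin, had 10.70, 9.59, 9.74 and 9.34 against 9.50, 9.79, 9.36 and 10.001. Its difference of -0.18 (SE 0.30, limma adjusted p = 0.888) turned to 0.11 without wild-type mouse 1. Ndrg1, a stress-responsive gene, differed by -0.11 (SE 0.13).

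Enzymes and other members also differed in how much the mice of a group varied. The median within-group SD was 0.172 for the 17 enzymes and 0.309 for the other 17 genes with Epas1 left out. Set against genes within 0.5 log2 units of the same level, the median percentile of the SD was 35.7 and 60.4. Besides Hif3a, the most variable genes for their level were Ankrd37 (96.8th percentile), Ddit4 (95.9th) and Adm (92.5th). No test was made of this description.

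Further genes of the pathway gave a like picture. Of 20 measured glycolysis and pyruvate genes outside the set, none passed by limma (1 had an unadjusted p under 0.05, or 5% against 9.15% of all genes), and their median difference was -0.12. Pklr, the liver and red cell pyruvate kinase, was that gene (lower), but all mice save wild-type mouse 4 were under the floor. Pdk4, a brake on pyruvate oxidation, differed by -0.61 (SE 0.35, limma adjusted p = 0.646), Pgm2 by 0.43 (SE 0.27) and Pdha1, a subunit of pyruvate dehydrogenase, by 0.16 (SE 0.11). Gapdh differed by 0.01 (SE 0.13) at a level near the top of the scale. None of 41 further HIF pathway genes passed by limma, and 5 had an unadjusted p under 0.05 (1 higher and 4 lower), or 12.2% against 9.15% of all genes. Their median was 0.01. The groups did not overlap in 5 of the 41 (2 higher and 3 lower), or 12.2% against 6.53% of all genes. Edn1, which encodes the vasoconstrictor endothelin, had 9.97, 10.45, 9.77 and 9.66 in wild-type mice and 10.58, 10.59, 10.49 and 10.79 in transgenic mice. All 4 transgenic mice were higher (difference 0.65, SE 0.19, limma adjusted p = 0.326). Crebbp, a HIF coactivator, had 12.39, 12.38, 12.40 and 12.49 against 12.04, 12.17, 12.05 and 11.85, lower in all 4 transgenic mice (-0.39, SE 0.11, limma adjusted p = 0.346). P4ha2, a collagen prolyl hydroxylase, differed by -0.56 (SE 0.19) and Rora, a nuclear receptor, by -0.37 (SE 0.14).

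Markers of other cells also varied between the mice, and their values are given beside genes picked after their values were seen, with no test of a relation. Of 7 measured neutrophil genes 0 passed and 0 had an unadjusted p under 0.05 (limma), and all 7 differences were negative. Their mean, set against the wild-type mean, was 1.06 in wild-type mouse 3 and from -0.57 to -0.17 in the other wild-type mice. It ran from -0.99 (mouse 2) to -0.06 in transgenic mice. Slc2a3, and the leukocyte hexokinase Hk3 (8.01 in wild-type mouse 3, 6.05 in transgenic mouse 2), had their highest value in that wild-type mouse and their lowest in that transgenic mouse. Slc16a3 did the same (11.37 and 10.14), and other members, such as Ddit4 (14.25), were also highest in that wild-type mouse. The summed neutrophil intensity was 78446 to 142734 in wild-type and 59430 to 95418 in transgenic mice, with none of the 7 under the floor. The part of these cells in the differences of Slc2a3, Slc16a3 and Ddit4 was not tested.

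None of 12 cardiac and striated muscle genes passed by limma, and 2 had an unadjusted p under 0.05, both lower, or 16.7% against 3.82% of all genes lower. Their mean was 0.74 above the wild-type mean in wild-type mouse 1 and stood at -1.71 in transgenic mouse 4, with summed intensities of 40048 to 91286 in wild-type and 14603 to 64051 in transgenic mice. Muscle forms of glycolytic genes were likewise lowest in transgenic mouse 4: Pgam2 at 6.85 against 7.59 to 8.92 in the other 7 mice, and Slc2a4, the insulin-dependent glucose transporter, at 7.54 against 8.59 to 10.10. Pfkm had its highest value, 10.09, in wild-type mouse 1 and its lowest, 9.53, in transgenic mouse 4. Ckm, the muscle creatine kinase, was under the floor in 2 mice and the other 11 genes in none. Not all genes of the list fell in transgenic mouse 4. Ckm stood there at 4.86, above wild-type mice 2 to 4, and Acta1 at 6.42, the highest of the transgenic mice. The rest of the list had its lowest values of the 8 mice in transgenic mouse 4. The part of muscle tissue in these values was not tested.

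None of 6 red cell genes passed by limma, and 4 had an unadjusted p under 0.05 (1 higher, 3 lower), or 66.7% against 9.15% of all genes. Epb42 was under the floor in 6 mice. Their mean was -0.86 to -0.55 in transgenic mice 1 to 3, 0.59 in transgenic mouse 4 and -0.12 to 0.14 in wild-type mice. Summed intensities were 129242 to 149334 in wild-type and 77080 to 144363 in transgenic mice. The sums are capped by saturation. Hba-a1 was at the top of the scale, 16, in wild-type mice 1 to 3 and transgenic mouse 4. Hbb-bt was there in wild-type mouse 1 and transgenic mouse 4. Bpgm, the red cell enzyme that makes the regulator of oxygen release by haemoglobin, had 10.79, 10.69, 10.39 and 10.52 in wild-type mice and 9.96, 10.002, 10.19 and 11.13 in transgenic mice. Transgenic mice 1 to 3 were below all wild-type mice for Bpgm and transgenic mouse 4 was above them. The red cell mean split the mice the same way, but the list median did not: it was 0.128 in transgenic mouse 4 and 0.147 in wild-type mouse 2. Its genes differed. For Hbb-bs and Alas2, transgenic mouse 4 was below wild-type mice 1 and 2, and Epb42 was highest in transgenic mouse 1. Slc4a1 stood at 9.21 in transgenic mouse 4 against 6.43 to 7.43 in the other mice. The difference of Bpgm was -0.28 (SE 0.26, limma adjusted p = 0.791), and the part of red cells in it was not tested.

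Immediate early genes and the heat shock genes Hspa1a and Dnajb1, which respond to stress and tissue handling, had negative differences in 14 of 14 measured. By limma 9 had an unadjusted p under 0.05 (64.3%, against 3.82% of all genes lower) and none passed over all genes. Their mean was -0.98 to -0.51 in transgenic mice and -0.38 to 0.50 in wild-type mice, with summed intensities of 65387 to 122148 in wild-type and 49923 to 59512 in transgenic mice. The differences of Ddit4, Pfkfb3 and Slc16a3 were also negative. Pfkfb3 was highest in wild-type mouse 4, where the mean of the 14 genes was 0.50. Ddit4 and Slc16a3 were highest in wild-type mouse 3, where that mean was -0.38, beside -0.37 in wild-type mouse 2. T cell genes stood on the other side: 5 of 10 were higher at an unadjusted p under 0.05 (50%, against 5.33% of all genes higher) and 0 passed over all genes (limma), with summed intensities of 1774 to 3078 in wild-type and 3368 to 4505 in transgenic mice, and Rag2 and Ptcra under the floor in all 8. Among 8 macrophage genes only Marco, a scavenger receptor, passed, at -2.08 (SE 0.22, limma adjusted p = 0.0105), while the other 7 differences were positive. The part of these genes in the differences of Hif1a, Car9, Ddit4, Pfkfb3 and Slc16a3 was not tested.

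**Figure D4:**
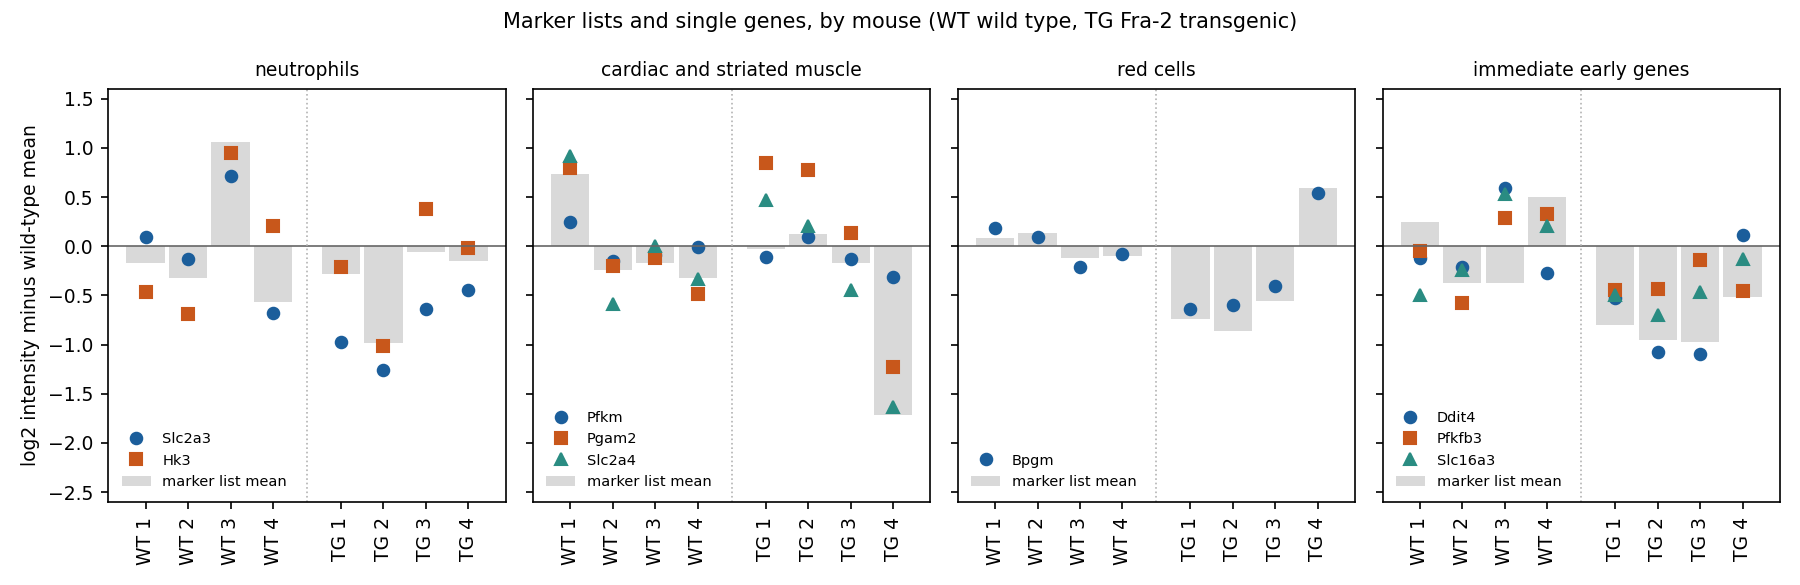
Mean of each marker list (grey bars) and single genes (symbols) in each mouse, as log2 intensity minus the wild-type mean (y axis), for wild-type mice 1 to 4 and transgenic mice 1 to 4 (x axis). Slc2a3 is highest where the neutrophil mean is highest. Pgam2 and Slc2a4 are lowest in transgenic mouse 4, as is the mean of the muscle genes. Bpgm is lower in transgenic mice 1 to 3 and higher in transgenic mouse 4.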

How the data were processed

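Lung RNA of 4 wild-type and 4 Fra-2 transgenic mice was measured on single-colour arrays, 1 per mouse. Groups came from the sample titles. For 62976 spots, intensity was deposited on a linear scale. R 2.15.1 and limma 3.14.4 are named in the submitters' processing notes. No background or normalization method is stated there. Each array had a median of 26.6 and a mean of 1203, so the arrays share nearly 1 distribution.

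Symbols came from the platform annotation (31465 named spots) and were updated by RefSeq accession (29050 matched, 2933 replaced), giving 20863 genes. Log2 values with no offset were fitted with limma 3.58.1 (R 4.3.3), the model holding group alone, and p-values were adjusted by Benjamini-Hochberg over all genes, with 0.05 as the threshold. A difference is the transgenic mean minus the wild-type mean, given with limma's standard error (SE). Exact permutation tests compare 4 mice with 4. The fit was tested on simulated data. Figures used Python 3.11.15 and matplotlib 3.10.9.

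The members and lists were chosen with earlier results of these data known. Named by rule were HIF subunits and sensors, members with an unadjusted p under 0.05 or without overlap, chosen enzymes and targets (Hk1, Hk2, Pfkl, Pfkp, Pkm, Ldha, Slc2a1, Bnip3 and Adm), and up to 4 genes per pathway list with the smallest p. Some genes of the further lists are not reported here. Alternatives were 2 rescalings, offsets of 16 and 32, a filter on dim genes, other variance models, array weights, other spot rules, a replicate block and mice left out.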

Additional observations from a re-analysis of the deposited data

Results flagged for a closer look

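Single mice stood apart from the other 3 of their group in 5 of 68 group-by-gene sets examined, where chance flags about 1 in 20. Epas1 was not examined because its brightest spot was saturated. Transgenic mouse 4 was the high mouse for Egln3 (6.60 against 4.95 to 5.04) and Pgk1 (12.65 against 12.30 to 12.34) and the low mouse for Aldoa (15.13 against 15.50 to 15.54). Transgenic mouse 3 was high for Pfkfb3 (11.21 against 10.89 to 10.91). Wild-type mouse 3 was high for Bnip3 (12.58 against 12.27 to 12.30).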

How the results depend on the processing

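No member passed over all genes in any of the 19 alternatives, 8 of which leave out 1 mouse each. The count of all genes past the threshold, 45, moved to 80 with an offset of 16, 88 with an offset of 32, 71 with only genes above the floor, 118 with trend and robust variance, 100 with array weights and 17 without both mice numbered 4. With 1 mouse left out it ran from 17 to 38. With the replicate block it was 5. The mouse numbers are not stated to pair the samples. Correlations of deviations for numbers 1 to 4 were 0.138, -0.0128, 0.147 and 0.0753, against -0.163 to 0.106 for unlike numbers. For numbers 1, 3 and 4 the like-number value was the highest that either mouse had. A shared effect of mouse number was not tested, and the replicate block fit is given only here. The median difference of the enzymes ran from -0.0461 to 0.0743 with 1 mouse left out, the highest without wild-type mouse 2, and that of the other members from -0.13 to -0.05. Unadjusted p values under 0.05 were found in 2 to 6 members. The difference had the other sign under some alternative in 16 of 35 members, and kept its sign under all in the other 19. The largest of those 16 was 0.18 in size (Adm). The rescalings moved no array by more than -0.0028 (transgenic mouse 4), since the arrays share 1 distribution, so they test little. Bright spots at the top of the scale (Epas1) and dim ones near the floor (Egln3, Car9) limit what can be seen.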
